A study of Sus scrofa with 36 samples.

Results

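SLC22A4 and the genes that carry, attach and make carnitine were followed through the cerebellum of 33 piglets. The 10 genes are SLC22A4, SLC22A5, SLC25A20, CPT1A, CPT1C, CPT2, CRAT, CROT, BBOX1 and TMLHE, out of 31907 gene identifiers in the count tables. SLC22A4 was chosen on the readout itself, since it had the smallest unadjusted p-value of all genes between MILK-IUGR and MILK-NBW piglets when all 36 libraries were used (rank 1, with a Benjamini-Hochberg adjusted p of 1 in edgeR's quasi-likelihood test). Its values in those 2 groups are therefore a description without a test. The other 9 genes were chosen for their part in carnitine transport and metabolism. SLC22A5 was not analysed here, because its identifier has no row in the tables used, which leaves 9 genes. All 9 passed the filter on low counts in the fit of all 4 groups, SLC22A4 mostly through the MILK-NBW libraries, where it was highest.

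The piglets were term-born crosses of Danish Landrace, Yorkshire and Duroc and either of normal birth weight (NBW) or intrauterine growth restricted (IUGR), that is, born small after poor growth in the womb. From 3 days of age they were fed for 3 weeks with formula in which the fat came from vegetable oil (VEG) or from bovine milk (MILK), and RNA of the cerebellum was then sequenced. The 36 libraries come from 36 piglets, 9 in each combination of diet and birth weight (for example MILK-IUGR), with both sexes in every group. The labels name no other treatment and no group without formula, so each comparison is between formula-fed groups.

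In 3 libraries the share of read pairs not assigned to a gene stood apart from the rest of the group, and these are piglets 202 (VEG-NBW), 210 (VEG-IUGR) and 213 (MILK-NBW). The study left out 1 library from each of the same 3 groups for low RNA integrity without naming it. The values below are from the other 33 libraries, in which 15516541 to 23027502 read pairs fell on genes (median 18025540) and 26.7% to 30.5% were not assigned. For SLC22A4 and for each birth weight difference whose sign turned with all 36 libraries in edgeR, the value over 36 is given as well. Markers of granule neurons (GABRA6, CBLN3) and Purkinje cells (CALB1, PCP2), the neurons that define the cerebellum, were present, and the summed level of 11 granule neuron markers was 4666.5 to 7756 CPM. In bulk tissue, fewer cells of a type and less RNA per cell cannot be told apart.

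Carnitine is a small molecule to which fatty acids are attached so that they can enter mitochondria, where they are broken down for energy. Cells take it up through SLC22A5 (also called OCTN2) and make some of it from trimethyllysine, while SLC22A4 (OCTN1) is a close relative of SLC22A5 that carries mainly ergothioneine, a dietary antioxidant, and carnitine only weakly. CPT1 enzymes attach the fatty acid, SLC25A20 carries the product across the inner mitochondrial membrane in exchange for free carnitine, and CPT2 releases it again. Brain tissue draws most of its energy from glucose, and its fatty acid oxidation takes place mainly in astrocytes.

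Levels in CPM are the count of a gene divided by the read pairs on all genes and stated per 1000000 read pairs, scaled between libraries by the TMM method. CPM is not corrected for gene length, so levels are compared between groups and not between genes. SLC22A4 (ENSSSCG00000014275, chr2:134594843-134641403, Sscrofa11.1) was at the edge of detection, with 4 to 17 read pairs per library (median 8). In the 8 MILK-NBW piglets it ran from 0.455 to 0.921 CPM with a median of 0.659, and in the 9 MILK-IUGR piglets from 0.212 to 0.464 CPM with a median of 0.365. The lowest MILK-NBW piglet had 8 read pairs on the gene and the highest MILK-IUGR piglet had 8 as well. So 8 of the 9 MILK-IUGR piglets lay below the lowest MILK-NBW piglet, and the groups overlapped through 1 piglet.

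The means of both VEG groups lay between those of the MILK groups. SLC22A4 ran from 0.259 to 0.927 CPM in the 8 VEG-NBW piglets with a median of 0.368, and from 0.252 to 0.580 CPM in the 8 VEG-IUGR piglets with a median of 0.455. VEG-NBW thus held the highest single value of all 33 libraries, in piglet 216, together with several of the lowest. The group means were 0.695 ± 0.161 CPM in MILK-NBW (SD, n = 8), 0.471 ± 0.241 CPM in VEG-NBW (SD, n = 8), 0.437 ± 0.112 CPM in VEG-IUGR (SD, n = 8) and 0.339 ± 0.0791 CPM in MILK-IUGR (SD, n = 9). Each of the 3 steps between neighbours in that order was smaller than the larger SD of the pair.

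**Figure D1:**
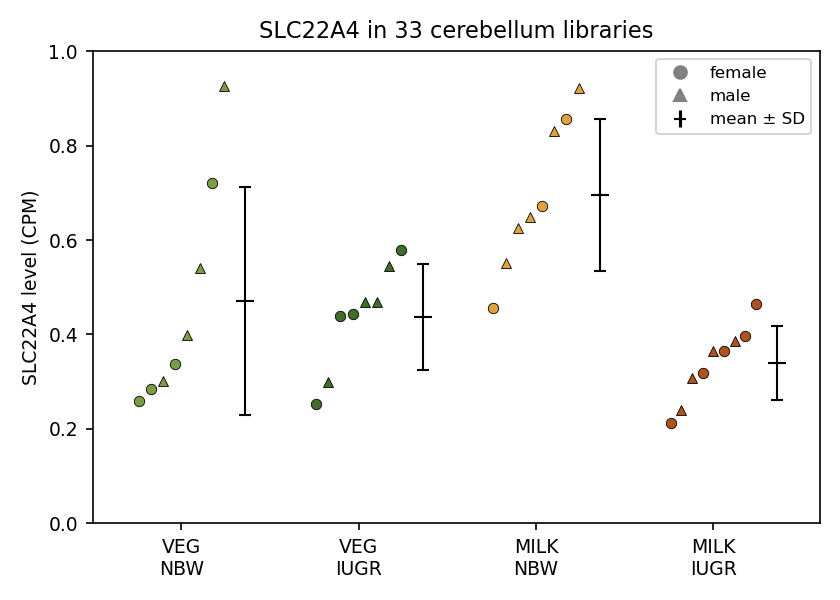
SLC22A4 level in CPM for each of 33 piglets in the 4 groups, sorted within a group, with circles for females and triangles for males. The black bars give the mean and SD. The MILK-IUGR piglets sit between 0.212 and 0.464 CPM and the MILK-NBW piglets between 0.455 and 0.921 CPM, while VEG-NBW runs from 0.259 to 0.927 CPM and VEG-IUGR from 0.252 to 0.580 CPM.

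The fitted log2 fold change of SLC22A4 for MILK-IUGR minus MILK-NBW was -1.01 (SE 0.25), which is the difference that chose the gene. It was -0.98 (SE 0.27) over all 36 libraries. Among the 15356 genes tested in 33 libraries, SLC22A4 ranked 3 by unadjusted p-value. In that comparison edgeR called 0% of the 15356 genes at an adjusted p under 0.05, DESeq2 called 2 genes and limma 1, none of them SLC22A4, and 6.24% had an unadjusted p under 0.05 in edgeR.

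Birth weight in the VEG piglets was not the difference that chose SLC22A4, but the fit behind the choice shared its estimate of spread over all 4 groups. A test in VEG is thus not fully independent of the choice. SLC22A4 did not pass the filter on low counts in a fit of the VEG groups alone. It was tested in the fit of all 4 groups, where the MILK-NBW libraries, with a median of 12.5 read pairs, carried most of its pass. The medians of the other groups were below the minimum count of 10, at 6.5 in VEG-NBW, 8.5 in VEG-IUGR and 6 in MILK-IUGR. The adjusted p in VEG, the sex interval and the rank of SLC22A4 among all genes rest on that pass. In the fit of all 4 groups the log2 fold change for VEG-IUGR minus VEG-NBW was -0.10 (SE 0.25, 95% interval -0.62 to 0.41), with an adjusted p of 1 in edgeR's quasi-likelihood test. An exact two-sided permutation test of the mean log2 CPM gave p = 0.927 (adjusted p = 0.984 over 42 such tests). Of the 64 pairs made of 1 VEG-IUGR and 1 VEG-NBW piglet, 53.1% had the higher value in the VEG-IUGR piglet. The sign of the fold change rested on single libraries, since it was 0.09 without piglet 216 and 0.04 without piglet 228, the highest VEG-NBW piglets, and 0.05 in limma. Over all 36 libraries it was -0.24 (SE 0.28), and the VEG-IUGR piglet had the higher value in 44.4% of 81 pairs.

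The remaining differences of SLC22A4 share libraries with the choice and are given as values only. MILK-NBW minus VEG-NBW was 0.55 (SE 0.24) on the log2 scale, and 0.49 (SE 0.27) over all 36 libraries. MILK-IUGR minus VEG-IUGR was -0.35 (SE 0.26), and -0.24 (SE 0.28) over all 36. The difference between the birth weight effects in the MILK and VEG piglets (the interaction) was -0.91 (SE 0.36), and -0.73 (SE 0.39) over all 36. Females ranged from 0.212 to 0.857 CPM (mean 0.441 ± 0.183, SD, n = 16) and males from 0.241 to 0.927 CPM (mean 0.519 ± 0.214, SD, n = 17), and the log2 fold change of males minus females, with the 4 groups in the model, was 0.12 (SE 0.18, 95% interval -0.24 to 0.49).

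The count behind these levels is small. Added over the group, SLC22A4 had 99 read pairs in MILK-NBW and 55 in MILK-IUGR, which gives pooled rates of 0.696 CPM (95% Poisson interval 0.566 to 0.848) and 0.334 CPM (0.252 to 0.435). The VEG groups had 67 and 65 read pairs, or 0.463 CPM (0.359 to 0.589) in VEG-NBW and 0.433 CPM (0.334 to 0.552) in VEG-IUGR. These intervals cover counting error only, and not the variation between animals. Counting alone would give a coefficient of variation (CV, the SD as a share of the mean) of 28.4% in MILK-NBW, where the piglets' CV was 23.2%, and of 40.5% in MILK-IUGR, where it was 23.3%. In both MILK groups and in VEG-IUGR (25.5% against 35.1%) the piglets therefore varied less than the counting error expected at this depth. In VEG-NBW they varied more (51.1% against 34.6%). The gene was chosen by its p-value between the MILK groups, which favours a small spread there, so the spread in those groups is a description only.

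**Figure D2:**
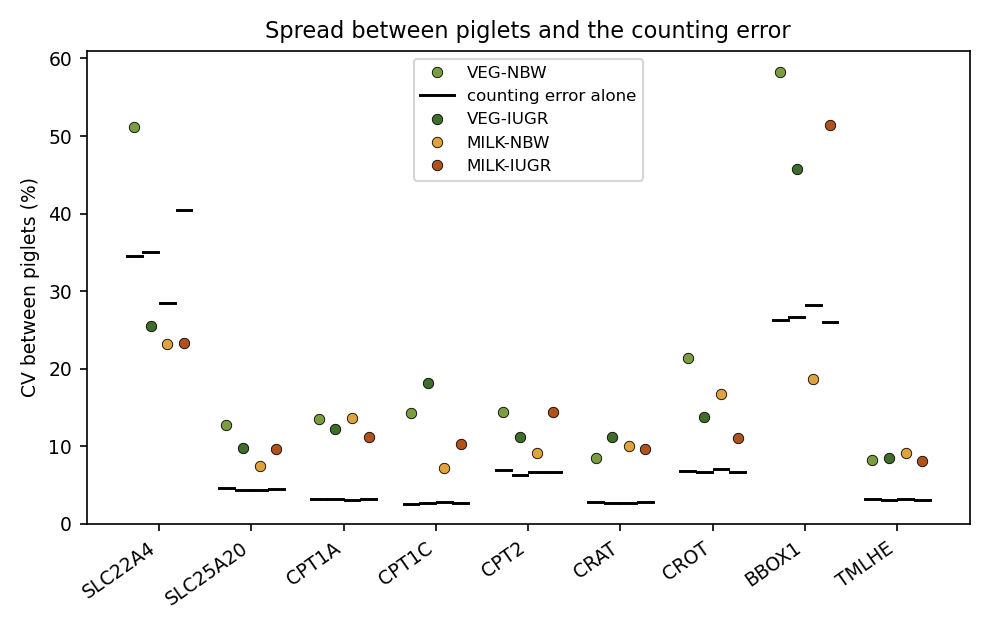
CV between piglets (dots, in %, by group) of each measured gene and the CV that counting error alone would give at the gene's mean count (black bars). SLC22A4 and BBOX1 have counting CVs of 26.0% to 40.5%, whereas the other 7 genes have counting CVs of 7.03% or less and vary between piglets by more than that in all 4 groups.

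SLC22A4 overlaps other genes. In the RefSeq annotation of Sscrofa11.1 it shares 602 bases with P4HA2, which encodes a subunit of the enzyme that hydroxylates proline in collagen, and 4822 bases with a long noncoding RNA. Whether the counting used strand is not given in the sources used here, so reads from the shared bases cannot be assigned with certainty. P4HA2 itself had 64 read pairs per library (median) and a log2 fold change of 0.35 (SE 0.17) in MILK-IUGR minus MILK-NBW, opposite in sign to SLC22A4.

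Of 9 genes listed as lying beside SLC22A4 on chromosome 2, 6 were tested. Not all are adjacent: the gap to SLC22A4 is 24486 bases for PDLIM4, 134718 for IRF1, 203056 for RAD50, 290935 for KIF3A and 315982 for ACSL6, while P4HA2 overlaps it. In MILK-IUGR minus MILK-NBW 4 of the 6 were higher at an unadjusted p under 0.05 and none was lower, against 6.24% of all genes in either direction, and none was called. They were P4HA2, KIF3A (0.20, SE 0.07), a motor protein subunit of cilia, ACSL6 (0.13, SE 0.05), which activates long-chain fatty acids in brain, and RAD50 (0.13, SE 0.06), a DNA repair protein. The adjusted p was 0.771 for each of the 4 in edgeR's quasi-likelihood test. PDLIM4 and IRF1 had log2 fold changes of -0.0064 and 0.08. None of the 6 reached an unadjusted p of 0.05 in VEG-IUGR minus VEG-NBW, where KIF3A was at -0.05 (SE 0.07) and P4HA2, with the smallest p, at 0.23 (SE 0.17). IL5 and CSF2 were below the filter, with medians of 4 and 0 read pairs.

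**Figure D3:**
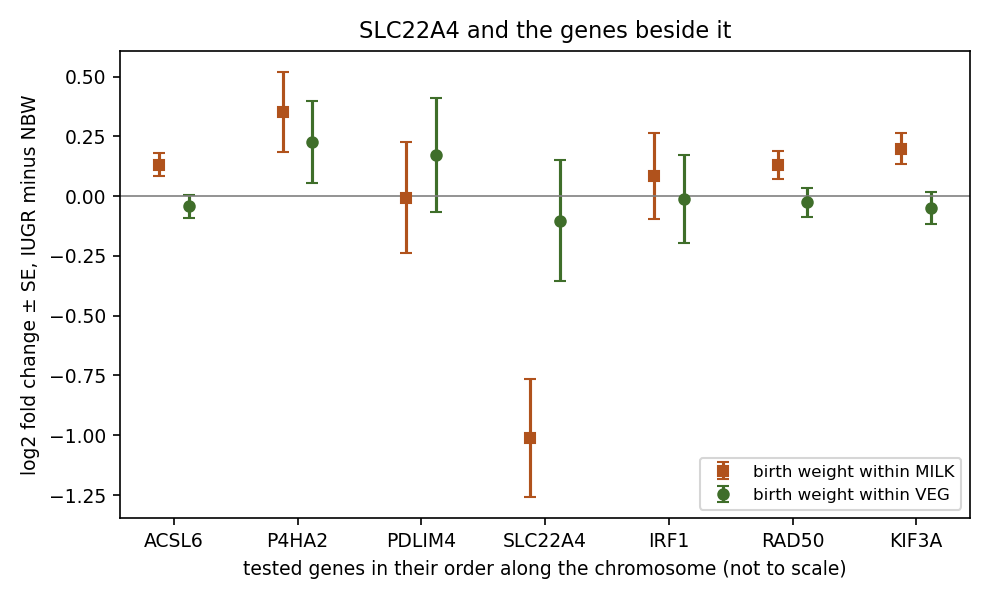
Log2 fold change ± SE of IUGR minus NBW piglets for SLC22A4 and the 6 tested genes beside it (up to 315982 bases away), in chromosome order and not to scale, within MILK (squares) and within VEG (circles). SLC22A4 lies at -1.01 within MILK, and its neighbours within MILK lie between -0.0064 and 0.35.

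Other cell types were looked at beside this result. Of 7 tested choroid plexus markers, 4 were higher (TTR, KCNJ13, CLIC6 and AQP1) and 1 lower (SLC4A5) in MILK-IUGR than in MILK-NBW at an unadjusted p under 0.05 (6.24% of all genes reached that level in either direction), and none was called. The 4 higher values came with piglet 231, in which the summed level of the 8 markers in the tables was 2028 CPM, against 161 to 412 CPM in the other MILK-IUGR piglets and 172 to 326 CPM in MILK-NBW. Without piglet 231, none of the 6 markers then tested was higher at an unadjusted p under 0.05. SLC4A5 was still lower at that level, and SLC22A4 was at -1.02 (SE 0.26). The most significant marker was AQP1, a water channel of the choroid plexus, at 2.66 (SE 0.81, adjusted p = 0.771 in edgeR's quasi-likelihood test). No choroid plexus marker in the tables was at 0 in all libraries.

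None of the 10 microglial markers tested had an unadjusted p under 0.05 in this comparison, and their summed level was 175 to 241 CPM in MILK-NBW and 110 to 268 CPM in MILK-IUGR. Of 11 markers of meninges and fibroblasts, FOXC1, a transcription factor of the meninges, was lower (-0.46, SE 0.16, adjusted p = 0.771 in edgeR's quasi-likelihood test), and the summed level was 551 to 1300 CPM in MILK-NBW and 457 to 1092 CPM in MILK-IUGR. Among the markers of red blood cells (5 tested), endothelium (8), mural cells (9), astrocytes and Bergmann glia (9), oligodendrocytes (9), granule neurons (11), Purkinje cells (9) and ependyma (4), none had an unadjusted p under 0.05 in MILK-IUGR minus MILK-NBW. Within MILK the smallest p belonged to HBM (-0.93, SE 0.55) for red blood cells, CLDN5 (-0.15, SE 0.10) for endothelium, ABCC9 (-0.50, SE 0.26) for mural cells and P2RY12 (0.14, SE 0.16) for microglia. It belonged to ALDOC (-0.28, SE 0.17) for astrocytes, ERMN (0.24, SE 0.26) for oligodendrocytes, PAX6 (0.10, SE 0.06) for granule neurons and RSPH1 (0.29, SE 0.24) for ependyma. Within VEG no marker on any of the 11 lists had an unadjusted p under 0.05. There the smallest p belonged to AHSP (0.96, SE 0.52) for red blood cells, TTR (-1.31, SE 1.18) for choroid plexus, PDGFRA (0.17, SE 0.12) for meninges and CLDN5 (0.13, SE 0.10) for endothelium. It belonged to CSPG4 (0.16, SE 0.10) for mural cells, TREM2 (-0.24, SE 0.19) for microglia, ALDOC (-0.21, SE 0.17) for astrocytes and CNP (0.31, SE 0.21) for oligodendrocytes. It belonged to GABRA6 (-0.13, SE 0.10) for granule neurons, CALB1 (-0.14, SE 0.16) for Purkinje cells and DNAH9 (-0.13, SE 0.10) for ependyma. The part of any of these cell types in the SLC22A4 values was not tested.

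Over the 33 libraries, the 5 genes whose log2 CPM was most like that of SLC22A4, out of 15355 compared, had Pearson correlations of 0.610 to 0.642. They were ENSSSCG00000010280 (0.642), C1QL1 (0.632), which encodes a secreted synapse protein, VAV1 (0.627), a signalling protein of blood-derived cells, CSF1R (0.620), the receptor on which microglia depend, and C1QB (0.610), a chain of complement C1q. Without the 2 piglets farthest from the median of SLC22A4 the correlations were 0.555 to 0.623. These points share libraries and group differences, and the highest of so many correlations is a description only. CSF1R and C1QB are also on the list of microglial markers, whose birth weight differences were given above.

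The acyltransferases of the mitochondrial outer membrane come first among the other genes. CPT1A (ENSSSCG00000012880, chr2:4250642-4293914) encodes the enzyme whose inhibition by malonyl-CoA sets the rate of fatty acid entry. It ran from 42.1 to 61.7 CPM in VEG-NBW with a median of 52.8, from 43.9 to 61.5 CPM in VEG-IUGR with a median of 50.0, from 48.4 to 70.6 CPM in MILK-NBW with a median of 57.1 and from 43.9 to 61.3 CPM in MILK-IUGR with a median of 55.0. All 4 groups overlapped, and 3 MILK-NBW piglets exceeded the highest VEG-NBW piglet. The log2 fold change of MILK-NBW minus VEG-NBW was 0.18 (SE 0.09, 95% interval -0.0074 to 0.36) with an adjusted p of 0.738 in edgeR's quasi-likelihood test, and the exact permutation test gave p = 0.0934 (adjusted p = 0.896). Birth weight differences were -0.11 (SE 0.09) within MILK and -0.0044 (SE 0.09) within VEG. Over both birth weights MILK minus VEG was 0.12 (SE 0.06, adjusted p = 0.985 in edgeR's quasi-likelihood test).

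CPT1C (ENSSSCG00000024872, chr6:54732701-54747706) is the neuronal member of the CPT1 family, found in the endoplasmic reticulum and with little acyltransferase activity. Its means were 81.1 ± 11.6 CPM in VEG-NBW (SD, n = 8), 75.6 ± 13.8 CPM in VEG-IUGR (SD, n = 8), 73.0 ± 5.30 CPM in MILK-NBW (SD, n = 8) and 73.9 ± 7.57 CPM in MILK-IUGR (SD, n = 9), all within 1 SD of VEG-NBW. The birth weight differences were 0.02 (SE 0.09) within MILK and -0.10 (SE 0.09) within VEG on the log2 scale. Within MILK its sign turned with the choice of libraries, to -0.05 (SE 0.14) over all 36.

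The carrier of the inner membrane, SLC25A20 (ENSSSCG00000011366, chr13:31523820-31553289), had means of 26.6 ± 3.37 CPM in VEG-NBW (SD, n = 8), 28.1 ± 2.74 CPM in VEG-IUGR (SD, n = 8), 29.0 ± 2.16 CPM in MILK-NBW (SD, n = 8) and 27.5 ± 2.65 CPM in MILK-IUGR (SD, n = 9). Its log2 fold change was -0.07 (SE 0.07, 95% interval -0.22 to 0.07) for birth weight within MILK and 0.08 (SE 0.07, 95% interval -0.07 to 0.23) within VEG. Over all 36 libraries the VEG value was -0.08 (SE 0.32) with the sign turned, and these libraries included piglet 210, which had no read pair on the gene.

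CPT2 (ENSSSCG00000003851, chr6:159038129-159061327), which frees the fatty acid inside the mitochondrion, was the only gene besides SLC22A4 with an unadjusted p under 0.05 in any comparison by edgeR. It ran from 9.39 to 14.95 CPM in VEG-NBW with a median of 11.02 and from 11.8 to 16.4 CPM in VEG-IUGR with a median of 13.3. The groups overlapped, 2 VEG-IUGR piglets lay above every VEG-NBW piglet, and the VEG-IUGR piglet had the higher value in 87.5% of the 64 pairs. In MILK it ran from 10.4 to 13.9 CPM in NBW (median 12.6) and from 9.43 to 14.7 CPM in IUGR (median 12.3), so that the VEG-NBW median was the lowest of the 4.

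The log2 fold change of CPT2 for VEG-IUGR minus VEG-NBW was 0.23 (SE 0.09, 95% interval 0.04 to 0.43), and its adjusted p was 1 in edgeR's quasi-likelihood test. The exact two-sided permutation test gave p = 0.0197, and p = 0.827 after adjustment over 42 tests. DESeq2 gave 0.23 (SE 0.09) and limma 0.23 (SE 0.08), neither of them called. With 1 of 9 members at an unadjusted p under 0.05 and 2.29% of all genes at that level (0% called), the count was not large enough to be read as a result about the group. Within MILK the difference was -0.0091 (SE 0.09), or 0.023 (SE 0.31) over all 36 libraries, and the difference between the MILK and VEG effects was -0.24 (SE 0.13, adjusted p = 0.784 in edgeR's quasi-likelihood test). Over all 36 libraries the VEG value was 0.14 (SE 0.31).

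CRAT (ENSSSCG00000005671, chr1:269387430-269401334) moves short acyl groups such as acetyl between carnitine and coenzyme A. Its means were 71.1 ± 6.08 CPM in VEG-NBW (SD, n = 8), 71.0 ± 7.98 CPM in VEG-IUGR (SD, n = 8), 74.1 ± 7.40 CPM in MILK-NBW (SD, n = 8) and 69.3 ± 6.73 CPM in MILK-IUGR (SD, n = 9). The birth weight differences were -0.09 (SE 0.07) within MILK and -0.0042 (SE 0.07, 95% interval -0.15 to 0.14) within VEG. With all 36 libraries the VEG difference was 0.73 (SE 0.28, adjusted p = 0.397 in edgeR's quasi-likelihood test) in a fit that included piglet 210. That piglet had 3862 read pairs on CRAT, or 482 CPM, against 57.0 to 84.8 CPM in the 33 libraries.

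CROT (ENSSSCG00000015391, chr9:93263606-93308150) attaches carnitine to medium-chain fatty acids made in peroxisomes. Its means were 11.96 ± 2.55 CPM in VEG-NBW (SD, n = 8), 11.9 ± 1.64 CPM in VEG-IUGR (SD, n = 8), 11.5 ± 1.92 CPM in MILK-NBW (SD, n = 8) and 12.2 ± 1.35 CPM in MILK-IUGR (SD, n = 9). The birth weight differences were 0.13 (SE 0.11) within MILK and -0.01 (SE 0.11) within VEG. Males (8.08 to 15.9 CPM, median 12.7) and females (8.31 to 13.5 CPM, median 11.3) overlapped, with a log2 fold change of 0.15 (SE 0.08) and an adjusted p of 1 in edgeR's quasi-likelihood test.

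**Figure D4:**
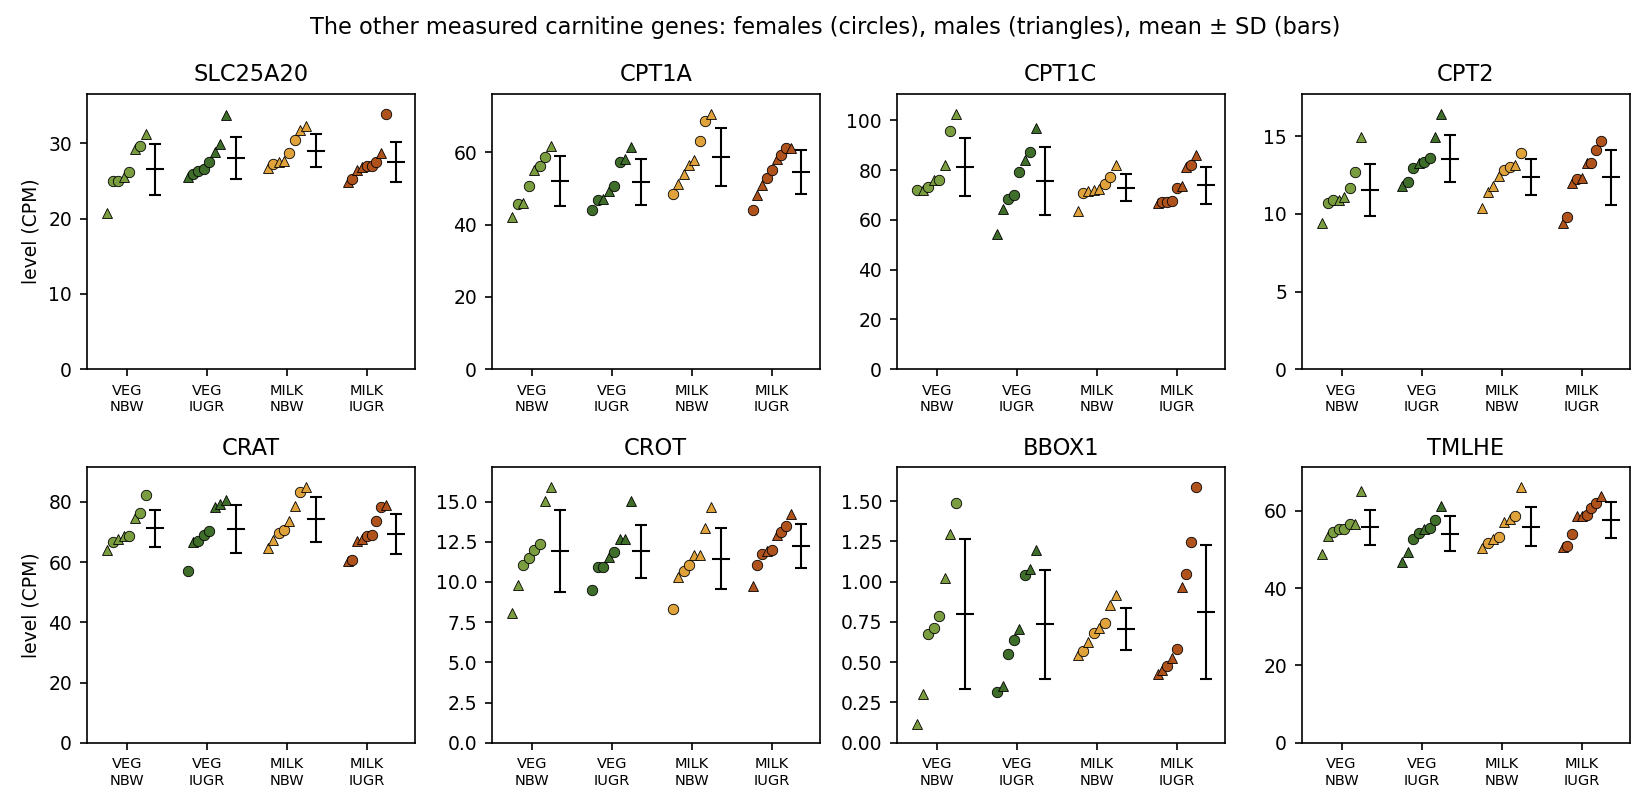
Level in CPM of the other 8 measured genes for each of 33 piglets by group, sorted within a group, with circles for females, triangles for males and bars for the mean and SD. The axes start at 0 and differ between panels. In all 8 panels the 4 groups overlap, and BBOX1 spreads most relative to its mean, from 0.114 to 1.59 CPM.

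The enzymes that open and close carnitine synthesis were TMLHE and BBOX1. TMLHE (ENSSSCG00000038442, chrX:125601920-125673716) hydroxylates trimethyllysine in the first step. It varied least of the 9 genes, with a CV of 8.40% over all 33 libraries and means from 54.1 ± 4.59 CPM in VEG-IUGR (SD, n = 8) to 57.6 ± 4.69 CPM in MILK-IUGR (SD, n = 9). Its birth weight differences were 0.04 (SE 0.06) within MILK and -0.04 (SE 0.06) within VEG. The gene lies on the X chromosome. Males had a mean of 56.0 ± 5.90 CPM (SD, n = 17) and females of 55.7 ± 3.15 CPM (SD, n = 16). The log2 fold change of males minus females was 0.0089 (SE 0.04, 95% interval -0.08 to 0.10) with a permutation p of 0.973. In the comparison of the sexes 0.163% of all genes were called (25 genes) and 2.94% had an unadjusted p under 0.05, and no member was among either.

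BBOX1 (ENSSSCG00000013337, chr2:33227965-33296013) catalyses the last step, from butyrobetaine to carnitine, an activity placed mainly in liver and kidney. As with SLC22A4 its counts were low, from 2 to 29 read pairs per library (median 13). It ran from 0.114 to 1.49 CPM in VEG-NBW with a median of 0.749, from 0.316 to 1.20 CPM in VEG-IUGR with a median of 0.673, from 0.542 to 0.918 CPM in MILK-NBW with a median of 0.698 and from 0.426 to 1.59 CPM in MILK-IUGR with a median of 0.583. The ranges of all 4 groups overlapped. The birth weight difference was 0.16 (SE 0.34, 95% interval -0.54 to 0.85) within MILK and -0.09 (SE 0.34, 95% interval -0.79 to 0.60) within VEG, and over all 36 libraries -0.067 (SE 0.40) within MILK and -0.26 (SE 0.39) within VEG. Its CV between piglets was 58.2% in VEG-NBW, 45.8% in VEG-IUGR and 51.4% in MILK-IUGR, against a counting CV of 26.0% to 26.7%, and in MILK-NBW it was 18.7% against 28.3%. BBOX1 overlaps a long noncoding RNA over 6833 bases and a pseudogene over 2291 bases in the annotation, and its count may include their reads.

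**Figure D5:**
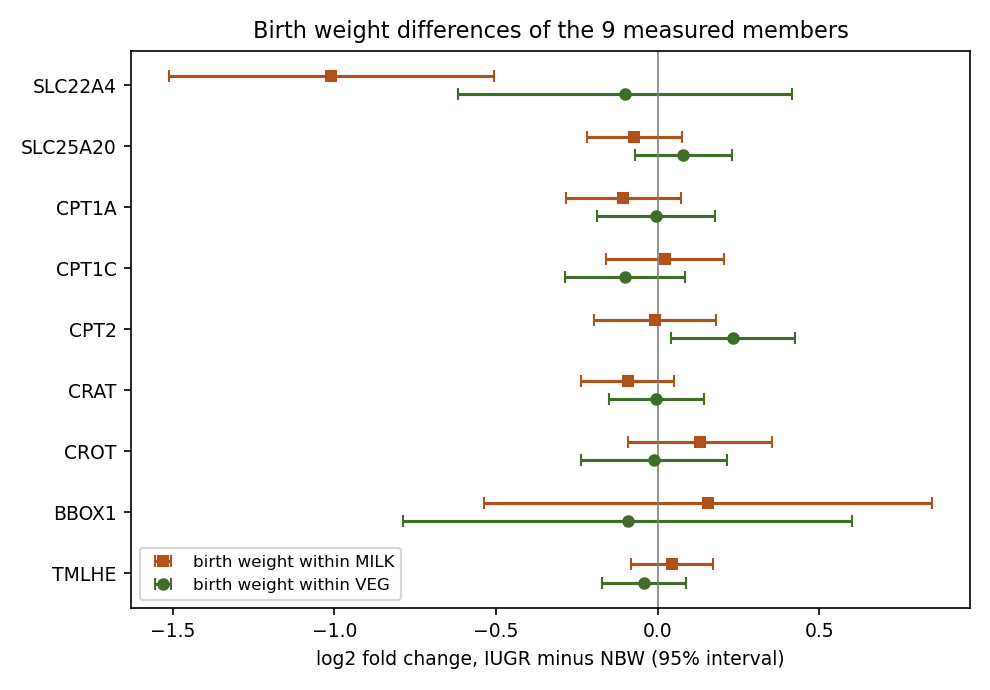
Log2 fold change of IUGR minus NBW piglets with its 95% interval for the 9 measured genes, within MILK (squares) and within VEG (circles). SLC22A4 was chosen on its MILK value of -1.01, the interval of CPT2 within VEG (0.04 to 0.43) leaves out 0, and all other intervals include 0, with those of BBOX1 the widest.

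Over the set as a whole, 0 of the 9 measured genes were called at an adjusted p under 0.05 by edgeR, DESeq2 or limma in any comparison. In birth weight within MILK the median log2 fold change of the 9 was -0.0091, beside -0.0049 over all genes, and within VEG -0.01 beside 3.4e-05. The summed level of the 9 was 292 to 348 CPM in VEG-NBW, 283 to 337 CPM in VEG-IUGR, 301 to 346 CPM in MILK-NBW and 292 to 328 CPM in MILK-IUGR, which overlap. At an unadjusted p under 0.05, edgeR counted 1 of 9 in birth weight within VEG (CPT2). SLC22A4 is left out of the counts for the other diet and birth weight comparisons, since these share libraries with its choice, and in birth weight within MILK 0 of the other 8 genes reached that level.

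In diet within NBW it counted 0 of 8, where 0% of all genes were called and 6.67% had an unadjusted p under 0.05. It also counted 0 of 8 in diet within IUGR (all genes 0% called, 3.9% unadjusted), in the interaction (0% called, 6.09% unadjusted), in diet over both birth weights (0% called, 4.26% unadjusted) and in birth weight over both diets (0% called, 2.19% unadjusted). DESeq2 gave the same counts, and limma added CPT1A in diet (7.7% of all genes in limma) and CROT in sex (6%). Over all 36 libraries CPT2 was no longer at that level within VEG, and CRAT was, there and in diet within IUGR and the interaction. In these fits 8.85%, 7.45% and 5.73% of all genes, in that order, were at that level, and 0% were called. They include piglet 210, with 482 CPM on CRAT against 57.0 to 84.8 CPM in the 33 libraries.

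Whether the other genes varied with SLC22A4 among piglets of the same group was examined on log2 CPM after the group means and sex were removed. Of 8 pairs, BBOX1 alone passed the threshold, with a Pearson r of 0.474 (permutation p = 0.00504, adjusted p = 0.0403) and a Spearman rho of 0.482 (permutation p = 0.00479, adjusted p = 0.0383). Without the 2 piglets farthest from the median of SLC22A4 the r was 0.327 (permutation p = 0.0718), so the relation was weaker without those piglets. It was 0.306 (permutation p = 0.0833, adjusted p = 0.344) when the group means and sex were left in. Both genes have few read pairs, and the correlation is not read as more than a description. For the other 7 genes r lay between -0.191 (CPT1C) and 0.317 (CROT), with adjusted permutation p-values of 0.284 or more.

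The wider pathway was described by lists of related genes. Among other genes of carnitine synthesis and entry and a further CPT1 gene, 5 of 7 were tested and 0 had an unadjusted p under 0.05 in birth weight within MILK or VEG. The smallest p within MILK belonged to SLC22A16, a carnitine transporter (0.08, SE 0.15), and within VEG to SHMT1, an enzyme of one-carbon metabolism (0.14, SE 0.20). Of 8 tested relatives in the SLC22 family, 0 reached that level in either comparison. SLC22A2, a cation transporter, was at -1.06 (SE 0.57) within MILK and SLC22A18 at -0.59 (SE 0.30) within VEG.

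Of 10 tested acyl-CoA synthetases and genes of malonyl-CoA control, 1 (ACSL6, also beside SLC22A4 on the chromosome) was higher within MILK at an unadjusted p under 0.05 and 0 within VEG, where SLC27A4, a fatty acid transport protein, had the smallest p (0.09, SE 0.06). Mitochondrial beta-oxidation had 17 tested genes, of which ACAD9, an acyl-CoA dehydrogenase that also assembles respiratory complex I, was lower within MILK (-0.14, SE 0.06) and ACAT1, which cleaves acetoacetyl-CoA, was lower within VEG (-0.15, SE 0.06), both at an unadjusted p under 0.05. Over all genes 6.24% reached that level within MILK and 2.29% within VEG, in either direction, so these counts are not read as results about the lists. No gene of peroxisomal beta-oxidation (10 tested) was at that level. ABCD3, a peroxisomal transporter, was at 0.09 (SE 0.06) within MILK.

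Among 12 tested regulators and targets of fatty acid oxidation, 2 were higher and 1 lower within MILK at an unadjusted p under 0.05 (6.24% of all genes reached that level in either direction), and 0 within VEG (2.29% of all genes). PDK4, a kinase that restrains glucose oxidation, had the smallest p within MILK, at 0.33 (SE 0.14). The others were PLIN2, a coat protein of lipid droplets (0.20, SE 0.09), and RXRA, a nuclear receptor (-0.22, SE 0.10). UCP2, a mitochondrial carrier, had the smallest p within VEG, at 0.24 (SE 0.14). None of the genes on these lists was called in any of these comparisons, and the adjusted p of each gene named from them was 0.771 or more in edgeR's quasi-likelihood test. The median log2 fold changes of these lists of carnitine, fatty acid and SLC22 genes and of the genes beside SLC22A4 lay, within MILK, between -0.05 (peroxisomal beta-oxidation) and 0.13 (the genes beside SLC22A4), beside -0.0049 over all genes.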

How the data were processed

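Paired-end RNA-seq of total RNA from cerebellum was made for 36 piglets. The authors deposited 1 table per piglet of raw counts per Ensembl pig gene, without normalization, closed by 5 lines of read pairs not assigned to a gene (26.7% to 64.3% of a library), which were kept out of library sizes and tests. The submitters' processing notes name Trim Galore, HISAT2, HTSeq, DESeq2 and the build Sscrofa11.1. Versions, the annotation release and the strand setting of the counting are not given in the sources used here. Symbols (15029 of 31907 identifiers) came from a table of pig gene names, and positions from the RefSeq annotation of the same build. The genes and lists, and the set of 33 libraries, were chosen with earlier results of these data known.

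The tests on counts used edgeR 4.0.16 in R 4.3.3 (TMM, filterByExpr with a minimum count of 10, quasi-likelihood F test) on 33 libraries in 1 model of the 4 groups and sex. Diet and birth weight over both levels of the other factor came from a model without their interaction. Genes were called at a Benjamini-Hochberg adjusted p under 0.05 over 15356 genes. For single genes, the mean log2 CPM (computed with a prior count of 2) was compared by exact permutation of the piglets of 2 groups, and by 100000 permutation draws for sex and correlations. The edgeR, DESeq2 and limma fits were also run on simulated counts with planted changes, and the outcome is not reported here. Alternatives were all 36 libraries, DESeq2 1.42.0, its size factors in edgeR, no sex term, no filter, limma 3.58.1 voom with quality weights, only the groups compared, and leaving out each piglet. Some settings that join all 36 libraries with another tool or no filter were added after seeing the data. The genes named are the 10 of the set, any gene of the related lists that was called (none was), the gene of each list with the smallest unadjusted p in either birth weight comparison, and the 5 genes most correlated with SLC22A4. Some genes that this rule names are not reported here. Other genes that reached an unadjusted p under 0.05 and are named beside SLC22A4, as regulators or as markers were picked after their values were seen.

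The 33 libraries held 15516541 to 23027502 read pairs on genes. At the mean count of each group, the counting error of SLC22A4 ran from 28.4% in MILK-NBW to 40.5% in MILK-IUGR. Each piglet is 1 sample, the labels number no replicates, and no 2 libraries had identical counts. The labels do not give the litter, so it did not enter the models.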

Additional observations from a re-analysis of the deposited data

Results flagged for a closer look

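In MILK-IUGR the SLC25A20 level of piglet 207 stood apart from the other 8 piglets, at 33.9 CPM with the nearest other piglet at 28.7 CPM, a gap that is 0.581 of the range of the group. It was the only such value in 36 combinations of 9 genes and 4 groups, and chance flags about 1 in 20 groups. No gene of the set had a birth weight effect that differed between the diets at an adjusted p under 0.05 in edgeR's quasi-likelihood test.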

How the results depend on the processing

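The count of members called was 0 in all 8 comparisons under every alternative that was run. SLC22A4 kept its sign in every fit for birth weight within MILK (-1.08 to -0.93 when 1 piglet was left out), diet within NBW (0.47 to 0.76), diet within IUGR (-0.44 to -0.27) and the interaction (-1.12 to -0.82). All of these share libraries with the choice of the gene, so the kept sign is a description and no support. For birth weight within VEG, SLC22A4 ranged from -0.19 to 0.094 when 1 piglet was left out (0.039 without piglet 228). It was -0.24 with all 36 libraries, 0.045 in limma and 0.037 in limma with all 36. In fits of only the 2 groups compared SLC22A4 passed the filter for diet within NBW alone, so the other such fits gave no value.

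With all 36 libraries in edgeR, without a filter, and in DESeq2, in that order, the sign turned within MILK for CPT1C (-0.054, -0.043, -0.022), BBOX1 (-0.067, -0.055, -0.028) and CPT2 (0.023, 0.030, 0.052), and within VEG for SLC25A20 (-0.076, -0.067, -0.090) and CRAT (0.73, 0.70, 0.76). Limma turned CPT2 within MILK (0.039 with 33 and 0.036 with 36 libraries) and TMLHE for sex (-0.0044 and -0.0075). The mean log2 CPM difference of CPT2 within VEG was -0.44 with all 36. Genes correlated with SLC22A4 numbered 1 of 8, but 7 by Pearson and 3 by Spearman with all 36 libraries, where piglet 210 has 0 read pairs on 5 of the other genes, and 0 when group means and sex were left in.

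The counting error of SLC22A4 exceeded the spread between piglets in 3 of 4 groups and that of BBOX1 in 1 of 4. For SLC22A4 these include both MILK groups, on which the gene was chosen. No analysis by litter was possible because the labels do not give it, so littermates were treated as independent piglets. Where no cause is given for a change of sign, the cause was not tested.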

Other observations

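The 3 libraries left out of the main values differed from one another in the carnitine genes. Piglet 210 (VEG-IUGR, 64.3% of read pairs not assigned) had 0 read pairs on SLC22A4, SLC25A20, CPT1A, CPT2, CROT and BBOX1, but 880 on CPT1C, 216 on TMLHE and 3862 on CRAT. Only 6513 gene identifiers had a read pair in that library. Piglet 202 (VEG-NBW, 43.6% not assigned) had 7 read pairs on SLC22A4, and its CPT1A level of 25.0 CPM and CPT2 level of 6.21 CPM lay below every one of the 33 libraries, while its CPT1C level of 148 CPM lay above them. Piglet 213 (MILK-NBW, 31.5% not assigned) had 10 read pairs on SLC22A4, or 0.616 CPM, which is inside the range of the other MILK-NBW piglets, and 32 read pairs on BBOX1, the highest of all 36. Piglet 210 had 7936202 read pairs on genes, and CPT1A was at 42.1 to 70.6 CPM in the 33 libraries. Counting error alone would not give 0 read pairs at such a level, so these zeros are not read as levels of the genes. Their cause was not tested, and no fit added this piglet alone.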
